A study of Arabidopsis thaliana with 32 samples.

Results

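The loci described here lie around SPR1 (AT2G03680) at one end of chromosome 2 of Arabidopsis thaliana and were measured by RNA sequencing in seedling roots. They are all loci listed in any of 12 tables deposited by the authors whose position on chromosome 2 starts less than 2 Mb beyond SPR1 or anywhere before it, with SPR1 itself and 4 other named genes set aside. This rule gave 95 of the 4802 loci listed anywhere, with 254 of the 12215 entries. Chromosome 2 beyond the window held 667 listed loci and the other chromosomes held 4036.

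The groups used were Sku6 flight 8 days, Col-0 flight 8 days, Sku6 ground 8 days, Col-0 ground 8 days, Sku6 flight 4 days, Col-0 flight 4 days, Sku6 ground 4 days and Col-0 ground 4 days. Each group had 4 samples, 32 in all, and each sample pooled the roots of several seedlings. Flight seedlings grew in a plant growth unit on the International Space Station and ground seedlings in a matching unit in a simulation chamber. Col-0 is the wild-type strain, and Sku6 is given in the labels by that name alone, without an allele or a second line. No agent was given to either genotype.

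SPR1, also called SPIRAL1 or SKU6, encodes a small protein that sits on cortical microtubules, and roots that lack it skew as they grow along a surface. Loci near SPR1 on the chromosome are inherited together with it more often than distant loci are. Genes at this end of chromosome 2 do not form a pathway, and the region near the centromere is rich in transposons and pseudogenes.

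The authors' deposited tables hold FPKM, a level scaled to transcript length and sequencing depth, as 1 value per group, together with a log2 fold change and a q-value, which is a p-value adjusted for the number of loci tested. A locus is listed in a table only where its q-value was at most 0.05. A locus that is not listed is therefore not shown to be unchanged, and no spread between samples can be given. The smallest p-value deposited, given by the authors' program Cuffdiff, was 5e-05. Loci at that value share the lowest q-value of their table, so this q-value does not rank them. In the authors' deposited tables SPR1 stood at 10.1 FPKM in Sku6 and 1269 FPKM in Col-0 (flight, 8 days), at 13.0 FPKM in Sku6 and 1422 FPKM in Col-0 (ground, 8 days), at 8.13 FPKM in Sku6 and 1210 FPKM in Col-0 (flight, 4 days) and at 7.21 FPKM in Sku6 and 1262 FPKM in Col-0 (ground, 4 days). The groups labelled Sku6 were thus 110-fold to 175-fold below Col-0 for this gene. Among the 95 loci, the largest finite difference between the genotypes was 6.57-fold.

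Reference sequences are shown for 3 of the 5 loci called in 3 genotype comparisons. They do not show whether Sku6 differs in sequence there. AT2G05995 is annotated as a noncoding RNA with 2 exons of 209 and 450 bases on the plus strand, and it is the locus listed at 0 in Sku6. Its first exon is printed from the TAIR10.1 reference (chr2:2325776-2325986, plus strand) with the first 2 bases of the intron in capitals.
AT2G05995: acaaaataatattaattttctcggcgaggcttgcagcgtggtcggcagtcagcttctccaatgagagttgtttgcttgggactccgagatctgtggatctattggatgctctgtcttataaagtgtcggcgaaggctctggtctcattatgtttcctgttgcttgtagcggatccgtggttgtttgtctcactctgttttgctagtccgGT

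NUDT17 (AT2G01670) and AT2G01900 were higher in Sku6 in the same 3 genotype comparisons. The 250 bases before the annotated start of each are printed from the same RefSeq reference, with matches to the searched motifs in capitals (NUDT17 from chr2:298216-298465, minus strand, and AT2G01900 from chr2:405512-405761, plus strand).
NUDT17: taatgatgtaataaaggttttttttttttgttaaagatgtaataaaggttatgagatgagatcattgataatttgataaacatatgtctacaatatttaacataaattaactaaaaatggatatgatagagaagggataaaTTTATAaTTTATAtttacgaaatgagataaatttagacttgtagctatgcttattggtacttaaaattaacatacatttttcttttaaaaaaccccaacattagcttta
AT2G01900: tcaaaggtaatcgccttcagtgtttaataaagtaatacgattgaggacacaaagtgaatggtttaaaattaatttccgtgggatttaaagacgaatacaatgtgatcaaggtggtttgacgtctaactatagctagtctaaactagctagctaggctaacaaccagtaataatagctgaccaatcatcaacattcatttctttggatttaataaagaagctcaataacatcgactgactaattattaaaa
No exon of another annotated gene lies in either window. The locus the authors assembled for AT2G01900 begins inside the second window, at base 405633. The motifs searched, on both strands, were the TATA box (TATAAA), the G-box (CACGTG), the W-box (TTGACC or TTGACT), the evening element (AAATATCT) and the telo-box (AAACCCTA). Only the TATA box was found, at 2 places in the NUDT17 window and in reverse orientation. It occurs in 47.3% of the 27443 windows of the same length before protein-coding genes, against 6.49% for the G-box, 28.4% for the W-box, 4.79% for the evening element and 4.49% for the telo-box. None of these motifs was found in the AT2G01900 window.

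Sku6 and Col-0 roots differed at 31 of the 95 loci in 1 or more of the 4 genotype comparisons. Of these 31, 18 were listed only as higher in Sku6, 11 only as lower, and 2 went in opposite directions in different comparisons. The genes listed as higher included MLP329, NUDT17, AT2G01900 and CYP71B9, and those listed as lower included AT2G05995, PDF2.1, EXPA15 and AT2G01720. Loci called in any genotype comparison made up 32.6% of the loci here, against 24.5% of all listed loci and 24.3% of the 4703 listed loci elsewhere. Because a locus is known only through being called in some table, these shares are conditional on that. Against all annotated protein-coding genes, 28 of 512 in the window (5.47%) were called between genotypes, against 1139 of 26927 (4.23%) in the rest of the nuclear genome. The authors' deposited tables allow no test of that difference.

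The number of loci called varied with age and place. In flight at 8 days, 12 loci were called, 7 higher and 5 lower in Sku6. Over all loci tested 1.4% were called, 1.03% as higher and 0.371% as lower, and the calls amounted to 5.83% of all listed loci, against 12.6% of the loci here. At 8 days on the ground, 6 loci were called, 3 higher and 3 lower, where the whole table had 1.34% called, 0.729% as higher and 0.608% as lower, or 5.54% of listed loci against 6.32% here. In flight at 4 days, 16 loci were called, 13 higher and 3 lower, where the whole table had 2.02% called, 1.55% as higher and 0.473% as lower, or 8.18% of listed loci against 16.8% here. At 4 days on the ground, 12 loci were called, 5 higher and 7 lower, where the whole table had 2.93% called, 1.45% as higher and 1.48% as lower, or 11.9% of listed loci against 12.6% here. The share here was thus close to that of all listed loci on the ground and above it in flight, a difference that was not tested.

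The median absolute log2 difference of the loci called here was 0.49 in flight and 0.53 on the ground at 8 days. At 4 days it was 0.61 in flight and 0.75 on the ground. For all other called loci it was 0.51, 0.73, 0.73 and 0.62 in that order. The signed median, Sku6 over Col-0, also depends on the balance of higher and lower calls. It was 0.38 over 11 loci in flight at 8 days and 0.33 over 5 loci on the ground at 8 days. At 4 days it was 0.61 over 15 loci in flight and -0.54 over 12 loci on the ground. AT2G05995, at 0 in Sku6, has no fold change and is left out of these medians. Among all other called loci in the same authors' deposited tables the signed median was 0.43, 0.46, 0.66 and -0.37 in that order of comparisons. These other loci include SPR1 and the other genes set aside. Of the 12 loci called in flight at 8 days, none with a finite fold change reached a log2 of 1 in either direction, while 2 did on the ground at 8 days, 2 in flight at 4 days and 2 on the ground at 4 days.

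**Figure D1:**
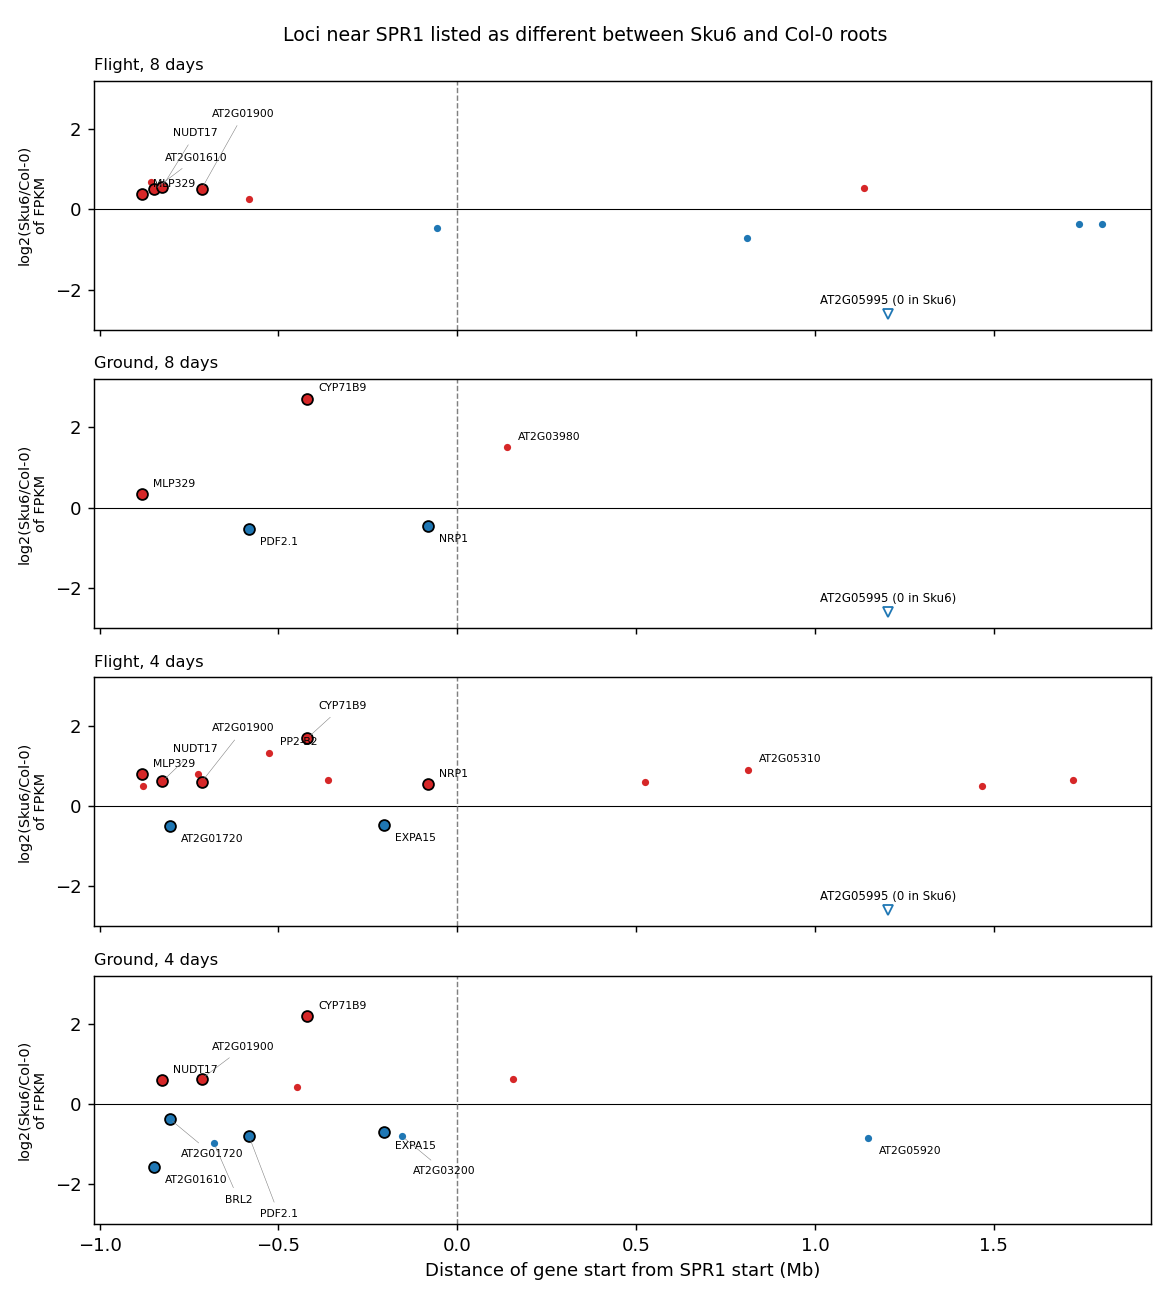
Log2 fold change of FPKM, Sku6 over Col-0 (vertical axis), against distance of the gene start from the start of SPR1 in Mb (horizontal axis), for loci listed in each genotype comparison; red is higher and blue lower in Sku6, and larger outlined points are loci listed in 2 or 3 comparisons. AT2G05995, at 0 in Sku6, is drawn as an open triangle with no fold change; most points lie between -1 and 1, and CYP71B9 reaches 2.72 on the ground at 8 days.

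The calls did not crowd around SPR1. The nearest locus called between genotypes on one side was AT2G03505, a protein with a carbohydrate-binding X8 domain, whose gene ends 55.3 kb before SPR1. On the other side it was AT2G03980, a GDSL-type lipase, which starts 137.0 kb after SPR1. Between these 2 genes the annotation holds 47 protein-coding genes besides SPR1, and 3 of them, the ureide permeases UPS1, UPS2 and UPS3, were listed in any table, within merged loci and for age alone. The range that the authors' tables give for SPR1 (chr2:1100339-1133656) contains 7 other protein-coding genes, none of them listed as a locus of its own.

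By distance from the start of SPR1, 12 of 142 protein-coding genes (8.45%) were called between genotypes at -1.2 to -0.5 Mb and 5 of 98 (5.1%) at -0.5 to -0.1 Mb. Within 0.1 Mb on either side it was 2 of 57 (3.51%), followed by 2 of 68 (2.94%) at 0.1 to 0.5 Mb and 2 of 73 (2.74%) at 0.5 to 1 Mb. Farther out it was 3 of 41 (7.32%) at 1 to 1.5 Mb and 2 of 33 (6.06%) beyond. All 9 protein-coding genes called in 2 or more genotype comparisons lay before SPR1, 6 of them in the first of these ranges. In bins of 1 Mb over the genome, the first bin of chromosome 2 had 7.26% of its protein-coding genes called and 3 of the 106 bins with at least 100 such genes had more. The second bin, which contains SPR1, had 3.16%, and 74 bins had more, with a median of 4.25% over bins.

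**Figure D2:**
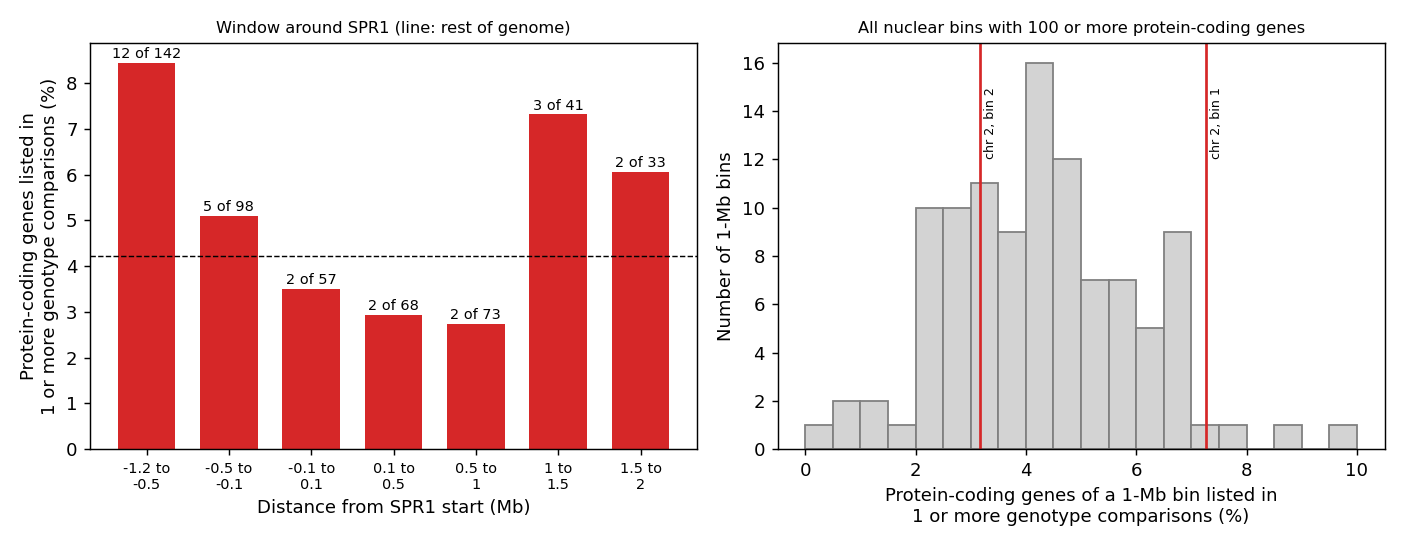
Left, share of annotated protein-coding genes listed in 1 or more genotype comparisons (vertical axis, percent) by distance from SPR1 in Mb, with counts above the bars and a dashed line at 4.23% for the rest of the genome; right, the number of 1-Mb bins (vertical axis) by the same share, with red lines at the first 2 bins of chromosome 2. The share is lowest at 0.1 to 1 Mb and highest at -1.2 to -0.5 Mb, the range farthest before SPR1, and the bin that holds SPR1 lies below the median of 4.25%.

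No locus here was called in all 4 genotype comparisons, where 0.354% of all listed loci were. Of the loci here, 5 were called in 3, 5 in 2 and 21 in 1. Thus 10 of the 95 were called in 2 or more, against 252 of all 4802 listed loci (5.25%). Loci called in 2 or more made up 32.3% of those called here, against 21% of those called elsewhere, where 16 loci were called in all 4. These differences were not tested. Of the 10 recurrent loci, 8 kept their direction, 4 higher and 4 lower in Sku6. Elsewhere 187 of 240 recurrent loci kept theirs, 138 higher and 49 lower. The 4 genotype comparisons share no sample, so agreement between them does not come from a shared group. The comparisons at 4 days in flight and on the ground shared 5 loci, all in the same direction, which was 31.2% of the flight list and 41.7% of the ground list. Those at 8 days shared 2 loci, 16.7% of the flight list and 33.3% of the ground list, both in the same direction. Across age, the 2 flight comparisons shared 4 loci and the 2 ground comparisons shared 2, all in the same direction. Flight at 8 days and ground at 4 days shared 3, of which 2 kept their direction. Ground at 8 days and flight at 4 days shared 4, of which 3 kept theirs. The same overlaps were not worked out for loci outside the window.

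AT2G05995 (chr2:2325776-2326876, noncoding) was listed at 0 in Sku6 in 3 of the authors' deposited tables. Its Col-0 level was 3.12 FPKM in flight at 8 days, 3.03 FPKM on the ground at 8 days and 3.42 FPKM in flight at 4 days, with q-values of 0.0075, 0.0061 and 0.00499. It was not listed on the ground at 4 days, nor in any flight or age comparison, so no value of it was in hand for that pair of groups. Every Sku6 value in hand was 0 and every Col-0 value was above 3 FPKM. No window of 50 bases in its exons occurred anywhere else in the nuclear genome. Genome-wide, 11 loci in the authors' deposited genotype tables had a genotype at 0, 4 of them in Sku6, and 2 of these 4 were at 0 in Sku6 in 3 tables. The other of these 2 is an unnamed locus farther along the chromosome (chr2:6439960-6440750), with Col-0 levels between 14.8 and 26.5 FPKM.

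NUDT17 (chr2:296510-298137), a nudix hydrolase, an enzyme class that cleaves nucleoside diphosphate derivatives, was higher in Sku6 in 3 comparisons. It had 135 FPKM in Sku6 and 91.3 FPKM in Col-0 in flight at 8 days, 150 FPKM in Sku6 and 98.0 FPKM in Col-0 in flight at 4 days, and 185 FPKM in Sku6 and 123 FPKM in Col-0 at 4 days on the ground, in the authors' deposited tables. The log2 differences were 0.57, 0.61 and 0.59, with q-values of 0.0075, 0.00499 and 0.00409, and so stayed within 0.05 of each other. On the ground at 8 days it was not listed between genotypes. There the authors' deposited age tables gave 115 FPKM in Sku6 and 99.7 FPKM in Col-0, a log2 difference of 0.21 between tables that were scaled separately.

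AT2G01900 (chr2:405633-409183), annotated as a DNase I-like superfamily protein, was higher in Sku6 in the same 3 comparisons. Its levels were 17.9 FPKM in Sku6 and 12.6 FPKM in Col-0 in flight at 8 days, 20.8 FPKM in Sku6 and 13.8 FPKM in Col-0 in flight at 4 days, and 23.5 FPKM in Sku6 and 15.2 FPKM in Col-0 at 4 days on the ground in the authors' deposited tables. The log2 differences were 0.51, 0.59 and 0.63, with q-values of 0.0400, 0.0446 and 0.00971. The ground at 8 days was again the comparison without a call, and in the authors' deposited tables its Sku6 level there, 12.6 FPKM in the flight table and 12.3 FPKM in the age table, was the lowest of the Sku6 groups. Within Sku6 it was also higher in flight than on the ground at 8 days (17.8 against 12.6 FPKM) and lower at 8 than at 4 days on the ground (12.3 against 24.1 FPKM) in the authors' deposited tables, comparisons that share the same ground group.

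CYP71B9 (chr2:701946-703770), a cytochrome P450, had the largest finite fold changes between genotypes, at low levels. In the authors' deposited tables it had 1.79 FPKM in Sku6 and 0.272 FPKM in Col-0 at 8 days on the ground, 3.02 FPKM in Sku6 and 0.936 FPKM in Col-0 in flight at 4 days, and 2.38 FPKM in Sku6 and 0.523 FPKM in Col-0 at 4 days on the ground. All 3 Sku6 values exceeded all 3 Col-0 values. The log2 differences were 2.72, 1.69 and 2.18, with q-values of 0.0486, 0.0255 and 0.00971. With 1 FPKM added to both groups they became 1.13, 1.05 and 1.15. In flight at 8 days it was not listed between genotypes, and the Sku6 level from the authors' deposited age table was 1.32 FPKM.

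MLP329 (chr2:239705-240520), a member of the major latex protein family, was higher in Sku6 in flight at both ages and on the ground at 8 days. It had 408 FPKM in Sku6 and 314 FPKM in Col-0 in flight at 8 days, 406 FPKM in Sku6 and 323 FPKM in Col-0 at 8 days on the ground, and 356 FPKM in Sku6 and 207 FPKM in Col-0 in flight at 4 days in the authors' deposited tables. The log2 differences were 0.38, 0.33 and 0.78, with q-values of 0.0075, 0.0110 and 0.00499, so the difference at 4 days was the largest of the 3. Its neighbour MLP328, listed as a locus merged with AT2G01480, is a close relative. No window of 50 bases in the exons of MLP329 or of MLP328 occurred elsewhere in the genome, and reads shorter than that could still be shared. MLP328 was not called between genotypes and is described with the age comparisons.

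**Figure D3:**
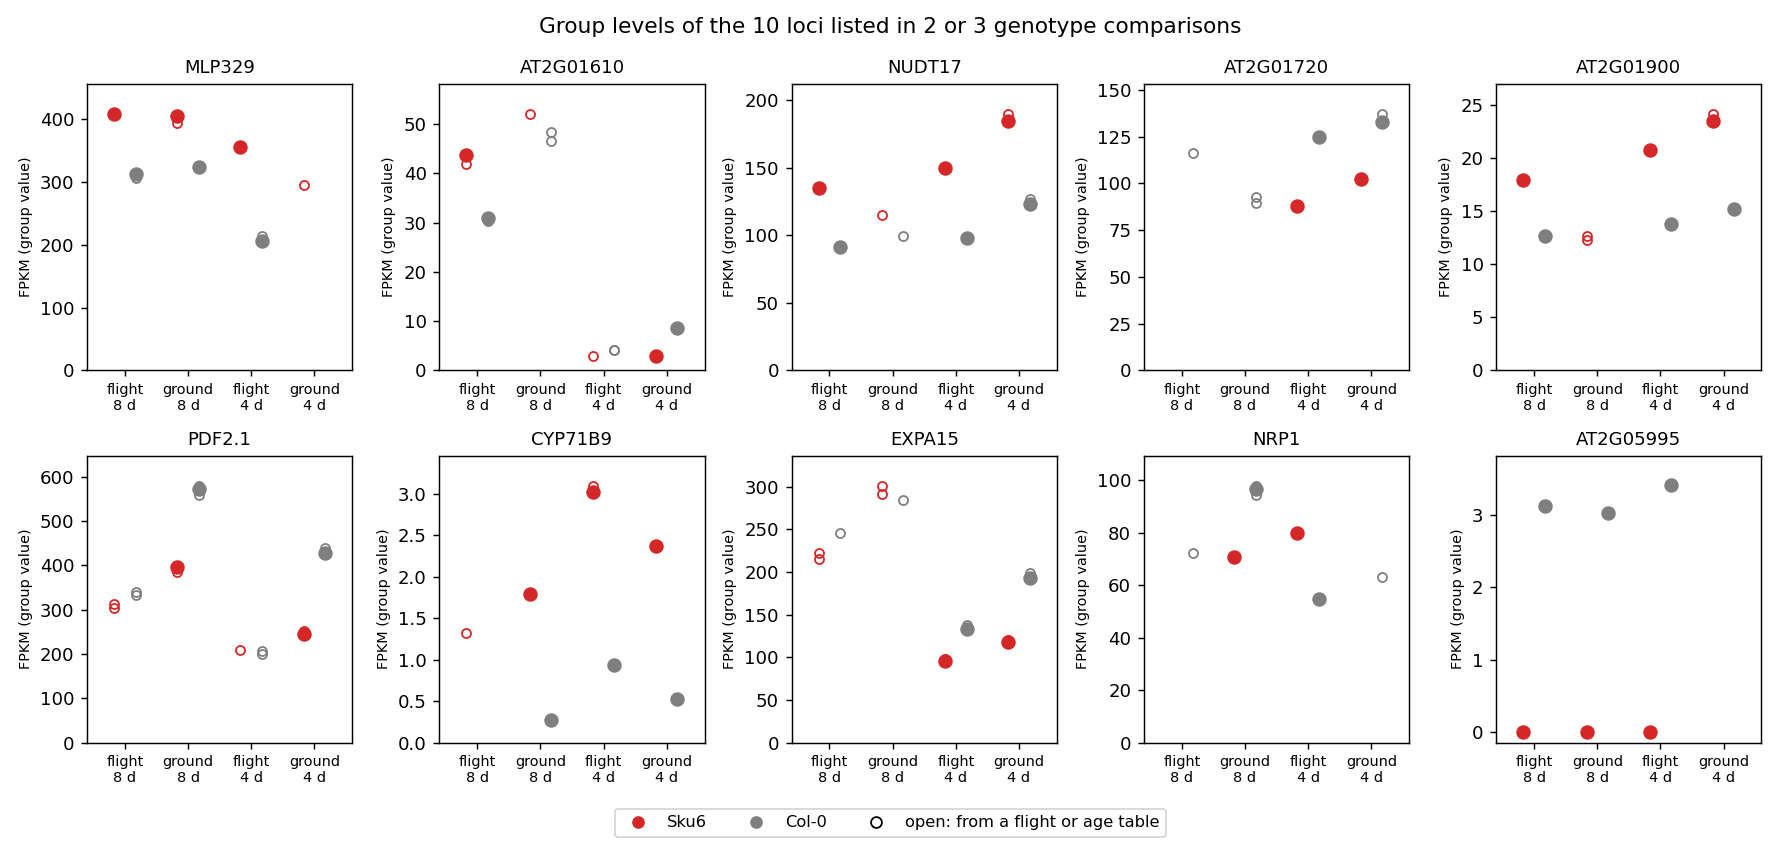
Group FPKM (vertical axis, linear) of the 10 loci listed in 2 or 3 genotype comparisons, by place and age, with Sku6 in red to the left of Col-0 in grey; filled points come from the genotype tables and open points from flight or age tables, and there are no error bars because the tables hold 1 value per group. NUDT17, AT2G01900, CYP71B9 and MLP329 lie higher in Sku6 wherever both genotypes are shown, and AT2G05995 lies at 0 in Sku6.

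A further 5 loci were called in 2 genotype comparisons. PDF2.1 (chr2:538250-539055), a plant defensin of the small cysteine-rich secreted proteins, was lower in Sku6 on the ground at both ages. In the authors' deposited tables it had 396 FPKM in Sku6 and 573 FPKM in Col-0 at 8 days, and 246 FPKM in Sku6 and 428 FPKM in Col-0 at 4 days, with log2 differences of -0.53 and -0.80 and q-values of 0.0061 and 0.00409. In flight it was not called between genotypes. The flight levels in the authors' other deposited tables were 303 to 313 FPKM in Sku6 and 333 to 341 FPKM in Col-0 at 8 days, and 209 FPKM in Sku6 and 200 to 208 FPKM in Col-0 at 4 days. The genotypes thus lay nearer to each other in flight than on the ground, and the difference between the places was not tested.

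EXPA15 (chr2:916854-918643), an expansin, a class of proteins that loosen the cell wall, was lower in Sku6 at 4 days in both places. It had 95.2 FPKM in Sku6 and 133 FPKM in Col-0 in flight, and 118 FPKM in Sku6 and 193 FPKM in Col-0 on the ground in the authors' deposited tables, with log2 differences of -0.48 and -0.71 and q-values of 0.0180 and 0.00409. At 8 days it was not called, and the authors' other deposited tables gave 215 to 222 FPKM in Sku6 and 246 FPKM in Col-0 in flight, and 292 to 300.2 FPKM in Sku6 and 284 FPKM in Col-0 on the ground. The ground levels at 8 days lay close together in tables that were scaled separately, and no direction is read from them.

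AT2G01720 (chr2:317030-320264), annotated as ribophorin I, a subunit of the complex that attaches glycans to proteins in the endoplasmic reticulum, was also lower in Sku6 at 4 days in both places. The authors' deposited tables gave 88.1 FPKM in Sku6 and 125 FPKM in Col-0 in flight, and 103 FPKM in Sku6 and 133 FPKM in Col-0 on the ground, with log2 differences of -0.50 and -0.37 and q-values of 0.00499 and 0.0495. The second of these lies at the edge of the threshold.

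AT2G01610 and NRP1 changed direction between comparisons. AT2G01610 (chr2:273917-274820) is annotated in the family of invertase and pectin methylesterase inhibitors. In the authors' deposited tables it was higher in Sku6 in flight at 8 days, with 43.6 FPKM in Sku6 and 30.9 FPKM in Col-0 (log2 0.49, q = 0.0212). On the ground at 4 days it was lower, with 2.86 FPKM in Sku6 and 8.51 FPKM in Col-0 (log2 -1.57, q = 0.00971). NRP1 (chr2:1039205-1040118), a nodulin-related protein, was lower on the ground at 8 days, with 70.6 FPKM in Sku6 and 96.9 FPKM in Col-0 (log2 -0.46, q = 0.0152), and higher in flight at 4 days, with 79.9 FPKM in Sku6 and 54.9 FPKM in Col-0 (log2 0.54, q = 0.0276), in the authors' deposited tables. Whether the genotype difference itself differed between the conditions was not tested.

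The listed markers of shoot tissue moved with genotype in the same direction as NRP1 in flight at 4 days and on the ground at 8 days. Of the loci here, NRP1 included, 13 of the 16 called in flight at 4 days were higher in Sku6, as these markers were. On the ground at 8 days 3 of the 6 called were lower, as these markers were, and 3 were higher. Of the 4 loci here called both in flight at 4 days and on the ground at 8 days, 3 kept their direction. These were MLP329, CYP71B9 and AT2G05995. In flight at 4 days, 5 of the 7 shoot markers, which code for Rubisco small subunits and light-harvesting proteins, were listed and all 5 were higher in Sku6, with a summed level of 624 FPKM in Sku6 and 351 FPKM in Col-0 in the authors' deposited table. At 8 days on the ground, 2 were listed and both were lower, summing to 208 FPKM in Sku6 and 390 FPKM in Col-0. None was listed between genotypes in flight at 8 days or on the ground at 4 days. No marker was listed at 0, none of the 3 seed storage markers was listed, and of the 5 root markers only SCR, a regulator of the root endodermis, was listed between genotypes, at 8.32 FPKM in Sku6 and 14.0 FPKM in Col-0 in flight at 8 days. Their part in the results of flight at 4 days and ground at 8 days was not tested. Fewer cells of a type and less RNA per cell cannot be told apart in these whole roots.

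The flight comparison at 4 days had the most calls, and most of them were higher in Sku6. Besides CYP71B9 and MLP329, the highest were PP2-B2, a phloem protein, with 12.8 FPKM in Sku6 and 5.13 FPKM in Col-0 (log2 1.32, q = 0.00499), and AT2G05310, a protein of unknown function, with 33.7 FPKM in Sku6 and 18.0 FPKM in Col-0 (log2 0.90, q = 0.0122), in the authors' deposited table. Next came PAP8, a purple acid phosphatase, with 75.0 FPKM in Sku6 and 43.5 FPKM in Col-0 (log2 0.79), and PLA2-ALPHA, a phospholipase A2, with 79.4 FPKM in Sku6 and 51.1 FPKM in Col-0 (log2 0.64), in the same authors' deposited table. PLPB, a PAS/LOV protein of the kind that senses blue light, had 24.0 FPKM in Sku6 and 15.5 FPKM in Col-0 there (log2 0.63). PSBX, a subunit of photosystem II, named here after its value was seen because it is a green-tissue gene, had 205 FPKM in Sku6 and 147 FPKM in Col-0 in the authors' deposited table (log2 0.48). These calls stood in the comparison in which the shoot markers were higher in Sku6.

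In flight at 8 days, AT2G01580, of unknown function, was the highest with 19.6 FPKM in Sku6 and 12.3 FPKM in Col-0 (log2 0.67), and AT2G05910, a LURP-one-like protein, had 38.8 FPKM in Sku6 and 26.6 FPKM in Col-0 (log2 0.54), in the authors' deposited table. The lower loci after AT2G05995 were AT2G05300, a transcribed pseudogene, with 4.45 FPKM in Sku6 and 7.28 FPKM in Col-0 (log2 -0.71), and AT2G03505 with 35.3 FPKM in Sku6 and 49.1 FPKM in Col-0 (log2 -0.48) in the same authors' deposited table. The pseudogene AT2G06950 (log2 -0.36) and CAS1, cycloartenol synthase of sterol synthesis (log2 -0.36), completed the 5. At 8 days on the ground, the remaining call was AT2G03980, with 3.35 FPKM in Sku6 and 1.18 FPKM in Col-0 (log2 1.51, q = 0.0061) in the authors' deposited table, which was called in no other comparison.

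On the ground at 4 days, secreted and wall-related proteins and a receptor were among the lower loci. After AT2G01610, the lowest were BRL2, a leucine-rich repeat receptor-like kinase of vascular tissue, with 2.84 FPKM in Sku6 and 5.59 FPKM in Col-0 (log2 -0.98), and AT2G05920, a subtilase, with 38.6 FPKM in Sku6 and 69.1 FPKM in Col-0 (log2 -0.84), in the authors' deposited table. AT2G03200, an aspartyl protease, had 7.61 FPKM in Sku6 and 13.3 FPKM in Col-0 (log2 -0.80) in the same authors' deposited table. RGF3, a peptide that maintains the root meristem, was higher, with 80.2 FPKM in Sku6 and 52.1 FPKM in Col-0 (log2 0.62, q = 0.0235), as was AT2G02510, a subunit of mitochondrial NADH dehydrogenase, with 674 FPKM in Sku6 and 506 FPKM in Col-0 (log2 0.41), in the authors' deposited table. AT2G02510 shares 68 bases with ISPD on the other strand, and the library kit does not mark strand, so reads in that stretch cannot be assigned.

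Several of these loci also differed between flight and ground within Col-0, in comparisons that share a Col-0 group with the genotype comparison. At 4 days the shared group was Col-0 on the ground, and for EXPA15 Col-0 in flight as well. There the authors' deposited flight table for Col-0 gave log2 values, flight over ground, of -1.07 for AT2G01610, -0.83 for BRL2, -0.97 for AT2G05920, -1.17 for AT2G03200, -1.10 for PDF2.1 and -0.55 for EXPA15, and 0.56 for RGF3. At 8 days the shared group was Col-0 on the ground for NRP1 and Col-0 in flight for the others. There the authors' deposited flight table for Col-0 gave -0.80 for AT2G01580, -0.64 for AT2G01610, -0.43 for NRP1, 0.36 for AT2G03505, 0.38 for AT2G06950 and 0.45 for CAS1. Their direction cannot be read as independent of the genotype values, because they share a Col-0 group with them.

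**Figure D4:**
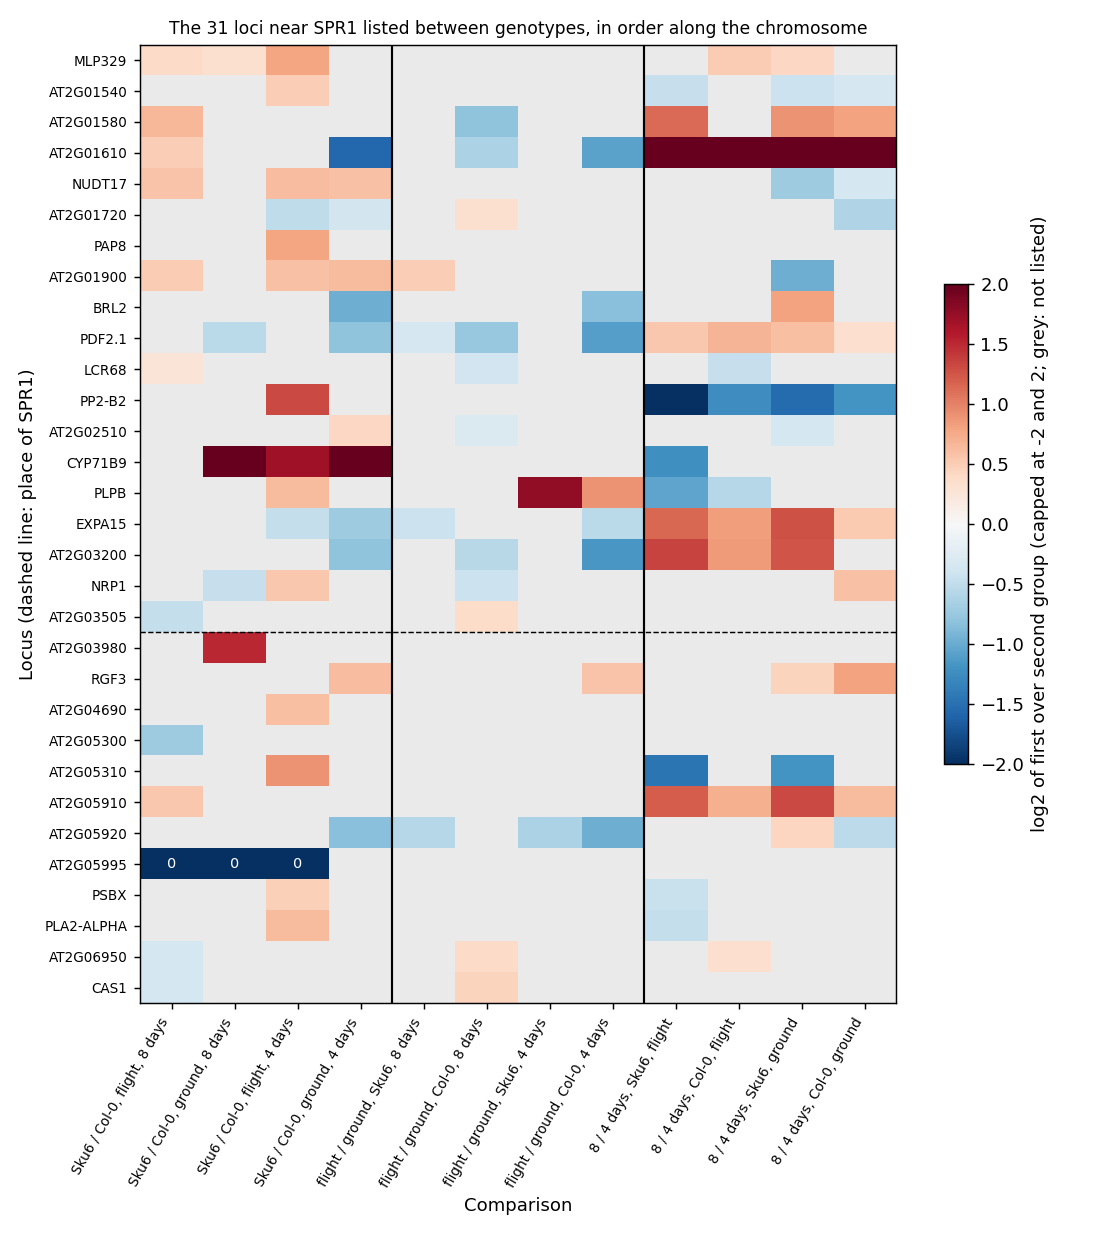
Log2 fold change (colour, capped at -2 and 2) of the 31 loci listed between genotypes, in order along the chromosome, over the 4 genotype, 4 flight and 4 age comparisons, each as first over second group; grey cells are not listed and cells marked 0 had Sku6 at 0. In the genotype columns 10 of the 31 rows are filled more than once. AT2G01610, PDF2.1, PP2-B2, EXPA15 and AT2G05910 are filled in all 4 age columns.

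The loci were put into groups by role for this description, from the annotated products and with the results known, so that AT2G01900 stands with signalling and PLA2-ALPHA with secreted enzymes. The groups named hold 3 to 12 loci, and their counts are to be read against the 32.6% of all loci here and the 24.5% of all listed loci that were called between genotypes. By these groups, 7 of the 9 cell wall and secreted enzymes were called between genotypes, 2 only higher, 4 only lower and AT2G01610 in both directions. Of the 11 metabolic enzymes 5 were called, 4 higher and 1 lower, and of the 12 signalling and light-response loci 5 were called, 4 higher and 1 lower. Of the 9 small secreted and storage-type proteins 3 were called, MLP329 and LCR68 as higher and PDF2.1 as lower. All 3 called pseudogenes and noncoding RNAs (of 7) were lower in Sku6. None of the 9 transcription, chromatin and telomere loci, the 6 transport loci or the 3 microtubule and cell cycle loci was called between genotypes. No difference between these groups was tested.

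Growth in flight or on the ground separated 45 of the 95 loci in 1 or more of 4 comparisons, 22 only higher and 23 only lower in flight. This was 47.4% of the loci here, against 50.2% of all listed loci. In Sku6, 9 loci were called at 8 days (2.51% of all loci tested) and 14 at 4 days (4.45%). In Col-0, 21 were called at 8 days (4.05% of all loci tested) and 24 at 4 days (7.21%). As shares of listed loci these were 9.47%, 14.7%, 22.1% and 25.3% here, against 10.3%, 18.1%, 16.9% and 29.4% over all listed loci, so the share here was above that of the table as a whole in Col-0 at 8 days and below it in the other 3, with no test of these differences.

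RHA2B and PKS1 were lower in flight in all 4 comparisons. These 2 were 2.11% of the loci here, and 2.14% of all listed loci were called in all 4 in 1 direction. PKS1, a phytochrome kinase substrate that takes part in the bending of roots and shoots to light, had 9.80 FPKM in flight and 17.9 FPKM on the ground in Sku6 at 8 days, 10.6 FPKM in flight and 16.9 FPKM on the ground in Col-0 at 8 days, 10.0 FPKM in flight and 20.1 FPKM on the ground in Sku6 at 4 days, and 11.0 FPKM in flight and 19.3 FPKM on the ground in Col-0 at 4 days, in the authors' deposited tables. Every flight value lay below every ground value. RHA2B, a RING-type ubiquitin ligase that acts in abscisic acid responses, had 64.1 FPKM in flight and 97.3 FPKM on the ground in Sku6 at 8 days, and 55.9 FPKM in flight and 108 FPKM on the ground in Sku6 at 4 days, in the authors' deposited tables. In Col-0 it had 74.4 FPKM in flight and 97.8 FPKM on the ground at 8 days, and 72.5 FPKM in flight and 96.7 FPKM on the ground at 4 days.

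XERICO, another RING-type protein linked to abscisic acid, was higher in flight in 3 comparisons, with log2 values of 0.80 in Sku6 at 8 days, 0.79 in Sku6 at 4 days and 0.65 in Col-0 at 4 days in the authors' deposited tables. LOV1, a NAC-family transcription factor, was lower in flight at 4 days in both genotypes, with 1.23 FPKM in flight and 4.86 FPKM on the ground in Sku6, and 1.05 FPKM in flight and 4.17 FPKM on the ground in Col-0, in the authors' deposited tables (log2 -1.98 in each). The pseudogene AT2G04460 was higher in flight at 8 days, with 9.98 FPKM in flight and 3.21 FPKM on the ground in Sku6, and 5.53 FPKM in flight and 1.33 FPKM on the ground in Col-0, in the authors' deposited tables. Only Sku6 was listed for the glycine-rich protein AT2G05510, with 283 FPKM in flight and 109 FPKM on the ground at 8 days, and 167 FPKM in flight and 10.3 FPKM on the ground at 4 days, in the authors' deposited tables (log2 1.37 and 4.01). AT2G05510 shares its listed range with GRP9 and with the merged locus GRP3S and GRP-3, so reads between these repeats may have been divided among them. Whether its response differed between the genotypes was not tested.

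Further loci stood at the ends of single flight comparisons. In Sku6 at 4 days, the glycine-rich protein AT2G05540 (log2 1.92) and AT2G05330, a BTB/POZ protein (log2 1.84), were higher in flight in the authors' deposited table. In Col-0 at 4 days, the merged pseudogenes AT2G05280 and AT2G05290 (log2 1.46), the zinc finger factor IDD4 (log2 0.92) and PLPB (log2 0.90) were the highest, and AT2G04680, a C1-domain protein (log2 -1.29), came next to LOV1 among the lowest, in the authors' deposited table. The merged pseudogenes had low levels there, 1.59 FPKM in flight and 0.581 FPKM on the ground, and their q-value of 0.0499 lies at the edge of the threshold. In Col-0 at 8 days, SGR5, a zinc finger protein needed for shoot gravitropism, was higher in flight, with 3.69 FPKM in flight and 2.05 FPKM on the ground (log2 0.85, q = 0.0230), and so was the growth-regulating factor GRF6 (log2 0.55), in the authors' deposited table.

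Age separated more of the loci than genotype or place did. Of the 95, 75 were called in 1 or more age comparisons, 38 only higher and 36 only lower at 8 days, and AT2G05920 in both directions. This was 78.9% of the loci here, against 83% of all listed loci. In flight 30 loci were called in Sku6 (8.35% of all loci tested) and 28 in Col-0 (6.78%). On the ground 41 were called in Sku6 (9.43% of all loci tested) and 41 in Col-0 (11.2%). These were 31.6%, 29.5%, 43.2% and 43.2% of the loci here, against 34.3%, 28.3%, 39% and 46.5% of all listed loci. Of the calls here, 46.7%, 53.6%, 53.7% and 65.9% were higher at 8 days in that order. Among the calls of all other loci it was 47%, 49%, 50.4% and 50.4%. None of these differences was tested.

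The same direction in all 4 age comparisons was found for 12 loci, 8 higher and 4 lower at 8 days. This was 12.6% of the loci here, against 9.04% of all listed loci, a difference that was not tested. AT2G01610 had 41.9 FPKM at 8 days and 2.97 FPKM at 4 days in Sku6 in flight, 30.2 FPKM at 8 days and 4.24 FPKM at 4 days in Col-0 in flight, 51.9 FPKM at 8 days and 2.93 FPKM at 4 days in Sku6 on the ground, and 46.6 FPKM at 8 days and 8.76 FPKM at 4 days in Col-0 on the ground, in the authors' deposited tables. Every 8-day value lay above 30 FPKM and every 4-day value below 9 FPKM. AT2G02060, a homeodomain-like protein, had log2 values of 1.58, 3.06, 2.85 and 3.86 in the same order of groups, and the merged locus of AT2G01480 and MLP328 had 2.12, 1.78, 2.47 and 2.14, in the authors' deposited tables. The values of AT2G02060 rest on low levels at 4 days, of 1.43, 0.451, 0.793 and 0.384 FPKM in that order. The merged locus reached 801 FPKM at 8 days and 185 FPKM at 4 days in Sku6 in flight in the authors' deposited table. An unnamed locus (chr2:565031-566230) had log2 values of 1.64, 1.33, 1.29 and 2.30 in that order. PDF2.1, EXPA15, GRP9 and AT2G05910 made up the 8, with log2 values between 0.34 and 1.32 in the authors' deposited tables.

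The 4 loci lower at 8 days in every age comparison were GRP3S merged with GRP-3, the pseudogenes AT2G04460 and AT2G04110, and PP2-B2. GRP3S with GRP-3, glycine-rich proteins of the cell wall, had 8.98 FPKM at 8 days and 158 FPKM at 4 days in Sku6 in flight, and 7.27 FPKM at 8 days and 115 FPKM at 4 days in Col-0 in flight, in the authors' deposited tables. On the ground it had 16.3 FPKM at 8 days and 86.2 FPKM at 4 days in Sku6, and 14.3 FPKM at 8 days and 133 FPKM at 4 days in Col-0. AT2G04460 fell most in Col-0 on the ground, to 1.28 FPKM at 8 days, against 37.0 FPKM at 4 days (log2 -4.86) in the authors' deposited table, and in Sku6 on the ground it had 3.12 FPKM at 8 days and 33.8 FPKM at 4 days (log2 -3.44). PP2-B2 had log2 values of -2.47 in Sku6 and -1.23 in Col-0 in flight, and -1.54 in Sku6 and -1.19 in Col-0 on the ground, in the authors' deposited tables. AT2G04110 had log2 values between -1.32 and -0.89.

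**Figure D5:**
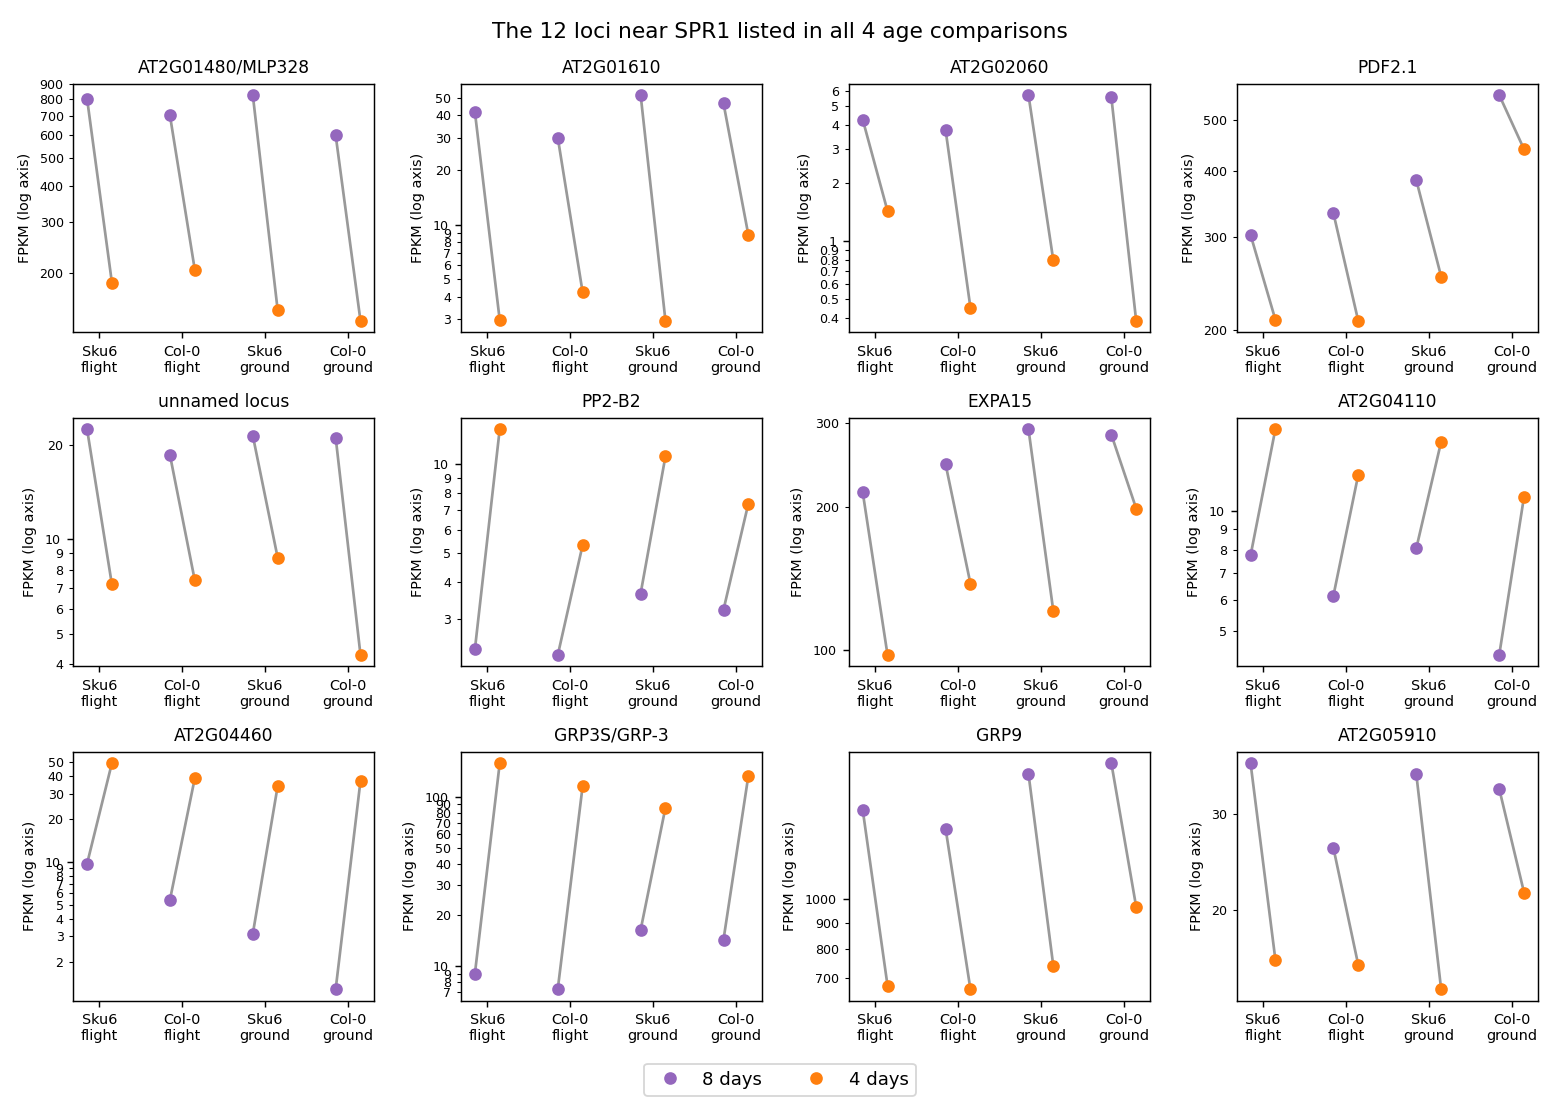
FPKM (vertical axis, log scale, range set per panel) of the 12 loci listed in all 4 age comparisons, with 8 days in purple to the left of 4 days in orange, for Sku6 and Col-0 in flight and on the ground; each point is 1 group value. In every panel the 4 lines slope the same way, 8 panels with 8 days above 4 days and 4 with 8 days below.

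LOV1 was lower at 8 days on the ground in both genotypes, with log2 values of -2.14 in Sku6 and -1.22 in Col-0 in the authors' deposited tables, and was not listed for age in flight. AT2G05920 went in opposite directions on the ground, with 53.3 FPKM at 8 days and 39.6 FPKM at 4 days in Sku6 (log2 0.43), and 49.5 FPKM at 8 days and 71.2 FPKM at 4 days in Col-0 (log2 -0.52), in the authors' deposited tables. Between genotypes on the ground it was called at 4 days and not at 8 days. All 3 microtubule and cell cycle loci were listed for age only and were higher at 8 days where listed. These are the merged locus of MAP70-3 and RR14, the cyclin CYCJ18, and ATMAP65-6, a microtubule bundling protein, with log2 values in Sku6 on the ground of 0.92 for the merged locus and 0.97 for CYCJ18, and in Sku6 in flight of 0.89 for the merged locus and 0.49 for ATMAP65-6, in the authors' deposited tables. Of the 95 loci, 64 were never called between genotypes, and 36 of these were called for age alone, 13 for place alone and 15 for both.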

How the data were processed

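RNA of dissected roots was sequenced in 32 samples, 8 groups of 4. The submitters' processing notes name STAR 2.5.1b, Cufflinks and Cuffdiff, with Trimmomatic 0.36, Picard and FastQC 0.11.2, and the build TAIR10. Settings and order are not given in the sources read. Per the file headers, each of the 12 deposited tables compares 2 groups and gives 1 FPKM value per group, a log2 fold change, a test statistic that was not used, a p-value and a q-value. The authors' deposited p-values come from Cuffdiff, were adjusted to q-values, and only loci with q at most 0.05 are listed. Depth and spread between samples are unknown, so no test was added. The p-values rest on 4 pools of roots per group and do not cover the spread between single seedlings.

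Log2 values were set to Sku6 over Col-0, flight over ground and 8 over 4 days. The number of loci tested (19464 to 19944 in the genotype comparisons) was computed from each table's p- and q-values, a step tested on simulated data. Tables were scaled separately, and over 80 group levels of these loci found in several tables the largest ratio between tables was 1.04. No fold change was given where a group was at 0. Positions are those of the files, with 1 added to each start. The TAIR10.1 reference overlapped all 4453 single-gene loci with an annotated gene, and gave names, gene types and sequences. Of the 95 loci, 94 have an annotated name and 7 merge several genes. The loci and lists were chosen with earlier results of these data known. Loci named are those called in 2 or more genotype comparisons, the 6 highest and 6 lowest of each genotype comparison and the 3 highest and 3 lowest of each flight or age comparison; others are given by counts unless stated. Alternatives were a q threshold of 0.01, a minimum log2 change of 1, a minimum of 1 FPKM, merged loci left out, a window of 1 Mb, 1 FPKM added, and levels from other tables. Python 3.11.15 with pandas 2.3.3 and numpy 2.4.6 was used.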

Additional observations from a re-analysis of the deposited data

How the results depend on the processing

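No paired analysis was possible because the deposited tables give 1 value per group. For the same reason no sample could be left out. With a q threshold of 0.01, 3 loci near SPR1 were called between genotypes in flight at 8 days, 3 on the ground at 8 days, 7 in flight at 4 days and 8 on the ground at 4 days, and 4 in 2 or more comparisons. With a minimum absolute log2 fold change of 1 (a locus at 0 in Sku6 counted as past it), 1 was called in flight at 8 days, 3 on the ground at 8 days, 3 in flight at 4 days and 2 on the ground at 4 days, and 2 in 2 or more comparisons. Both settings use fewer entries of the same tables by construction. The counts and all 4 medians moved by at most 1.5 times when merged loci, loci under 1 FPKM or loci beyond 1 Mb were left out, the most for the 8 loci called in flight at 8 days within 1 Mb, and no direction reversed. With 1 FPKM added to both groups, 4 of 43 single differences shrank by more than 1.5 times, 3 of CYP71B9 and that of AT2G03980, which became 1.00 on the log2 scale on the ground at 8 days. Differences of 15 entries recomputed from the flight and age tables differed by at most 0.0586 on the log2 scale. Both sets of levels come from the same samples, so this shows only the scaling between tables and does not test the differences. Low levels, unknown depth and the absence of loci above the q threshold limit every statement on what did not change.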

Other observations

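Beyond the window, a genotype was listed at 0 in 10 of the 11 such loci of the authors' deposited genotype tables. A merged locus of AT3G42900, AT3G42913 and AT3G42927 on chromosome 3 was at 0 in Col-0 in all 4 genotype comparisons, with Sku6 levels of 1.52 to 2.67 FPKM in the authors' deposited tables. Of the 11 loci, 7 were at 0 in Col-0 and 4 in Sku6.

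Where a locus near SPR1 was called in some genotype comparison and not in another, the flight and age tables gave both levels for 26 of the uncalled pairs of groups. Of these, 2 belonged to AT2G01610, which was called in both directions, and were left out of the next count. By sign alone, 16 of the other 24 went in the direction of the call and the rest the other way. Some of these differences were about as small as the shift between tables, so their sign is not read as a direction. Examples are log2 0.060 for EXPA15 on the ground at 8 days and 0.034 for PDF2.1 in flight at 4 days, against their calls. Another is 0.032 for AT2G05910 in flight at 4 days, with its call. No such share was worked out over all loci. These levels come from tables scaled separately and carry no test.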
